A study of Sus scrofa with 36 samples.

Results

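The mitochondrial respiratory chain and the ATP synthase are built from 5 large protein complexes, and the nuclear genes for 29 of their subunits, assembly factors and regulators were followed in the hearts of neonatal pigs. The members were chosen by name. They are the protein coding genes of the gene count table whose symbol begins with NDUF, with SDH followed by A, B, C, D or AF, with UQCR, UQCC or ATP5, or with COX or COA followed by a number, and which reached 10 counts or more in 3 or more libraries. The table lists 9815 genes of chromosomes 1, 2, 6 and 13, of which 5526 passed the same filter on counts, and all 29 members passed it. The members comprise 9 subunits of complex I, 1 of complex II, 2 of complex III, 5 of complex IV and 4 of complex V, together with 7 assembly factors and the ATP synthase inhibitor ATP5IF1. Subunits encoded on the other chromosomes or in the mitochondrial genome were not analysed here.

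The study followed circRNAs, miRNAs and mRNAs in postnatal pig hearts, and the gene counts come from its batch cd, in which total RNA of 12 hearts was sequenced by CD Genomics. The hearts were those of domestic Yorkshire pigs that were fed normally, taken on day 1 (P1), day 3 (P3), day 7 (P7) or day 28 (P28) after birth, with 3 pigs at each age. The tissue was rinsed and frozen and its cell types were not separated. In such bulk samples fewer cells of a type and less RNA per cell cannot be told apart. The 3 libraries of an age carry the numbers 4, 5 and 6 in the column names, which serve below as names, and in 1 alternative as a block.

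Complex I (NADH dehydrogenase) and complex II (succinate dehydrogenase) pass electrons to ubiquinone, complex III passes them on to cytochrome c, and complex IV (cytochrome c oxidase) passes them to oxygen. Complexes I, III and IV pump protons across the inner mitochondrial membrane, and complex V, the ATP synthase, uses the returning protons to make ATP. Assembly factors help to build the complexes but are not part of the finished enzymes. Heart muscle is rich in mitochondria, and around birth it turns from glycolysis towards the oxidation of fatty acids, which depends on the chain. Some subunits of complex IV exist as a ubiquitous isoform and as an isoform of heart and skeletal muscle.

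The libraries held between 8887176 and 14883849 counts, and between 7.09% and 19.7% of a library's counts fell on the 9 genes named Metazoa_SRP, which are fragments related to the signal recognition particle RNA. The members together took between 1.98% and 3.07% of a library's counts. P3 library 5 stood apart from the other 11 on the second principal component of all genes, at 40.2 against values between -19.1 and 5.57. P1 library 4 was the highest on the third component, at 32.8. The P3 libraries also differed most in the members, with a median coefficient of variation of 21.9% across the 29 genes, against 5.04% at P1, 8.36% at P7 and 9.0% at P28. Over all genes tested these medians were 23.9%, 12.8%, 10.8% and 13.3%. The markers of heart muscle cells were high in every library, with a summed level of the 6 measured markers (ACTC1, TPM1, MYL3, TNNC1, TNNI3 and MYBPC3) between 69121 and 90959 CPM, the count scaled to a common library size.

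The question of the comparisons is how the nuclear genes of each complex differed between P1 and the later ages. The CPM (counts per scaled library size) use TMM, which sets libraries side by side by the bulk of their genes. Changes are log2 fold changes of the later against the earlier age from the quasi-likelihood test of edgeR, in 1 fit over the 4 ages. A gene was called when its Benjamini-Hochberg adjusted p over all 5526 genes was under 0.05, and is said below to have risen or fallen only then. The paper counts 12 pig hearts in this batch, and the labels number 3 samples at each age. The tests thus measure the spread between pigs of 1 age.

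From P1 to P28, 7 of the 29 members fell and 0 rose, where 15.3% of all genes tested were called, 7.93% lower and 7.38% higher. An unadjusted p was under 0.05 in 10 members, against 30.7% of all genes. Those that fell were the complex IV subunits COX8A and COX7A2, the accessory complex I subunits NDUFA2, NDUFS5 and NDUFA8, the alpha subunit of the ATP synthase, ATP5F1A, and the inhibitor ATP5IF1. Their log2 fold changes lay between -1.11 for COX7A2 and -0.44 for NDUFA8. The fitted change was under 0 in 24 of the 29 members, against 49.7% of all genes tested, and the median over the members was -0.24, against 0.00 over all genes. In 17 members, every P28 library lay below every P1 library, which held for 21.9% of all genes.

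**Figure D1:**
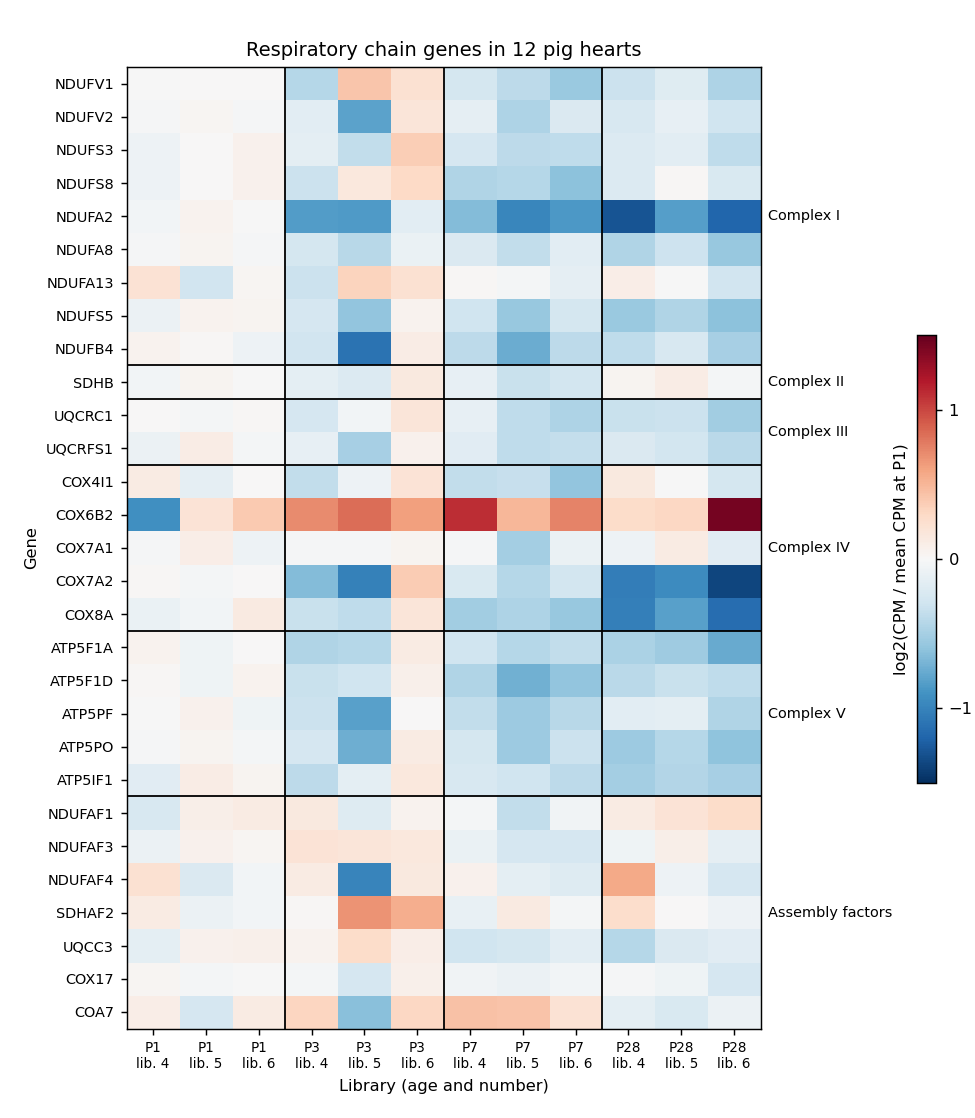
Level of the 29 members in each of the 12 libraries, as log2 of the CPM over the gene's mean CPM at P1 (colour scale from blue, lower, to red, higher; columns are libraries grouped by age, rows are genes grouped by complex). The P28 columns are darkest for COX7A2, COX8A and NDUFA2, COX6B2 with 8 to 31 counts is the most variable row, and P3 libraries 5 and 6 differ from each other across most rows.

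COX8A encodes the ubiquitous isoform of subunit 8 of complex IV (chromosome 2, positions 8101614 to 8103298). Its CPM was 321, 336 and 377 in the P1 libraries, 273, 265 and 389 at P3, 241, 251 and 232 at P7, and 169, 196 and 156 at P28. The P28 libraries lay below all others and the P7 libraries below the P1 and P3 libraries, while P3 library 6 was the highest of the 12. COX8A fell between P1 and P28 by 0.99 on the log2 scale (SE 0.15, edgeR adjusted p = 0.00159), a 1.98-fold lower level. It was the only member called between P7 and P28, where it fell by 0.47 (SE 0.15, edgeR adjusted p = 0.0484).

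COX7A2, the ubiquitous isoform of subunit 7A (chromosome 1, 90696698 to 90703410), had the most negative change of the members. Its CPM was 495, 477 and 491 at P1, 311, 241 and 633 at P3, 416, 361 and 402 at P7, and 237, 252 and 187 at P28. The P1, P7 and P28 libraries did not overlap, whereas the P3 libraries ran from near the P28 values to the highest value of all. The change from P1 to P28 was -1.11 (SE 0.27, edgeR adjusted p = 0.0169) and that from P7 to P28 was -0.80 (SE 0.27, edgeR adjusted p = 0.0562), which missed the threshold.

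NDUFA2, an accessory subunit of the matrix arm of complex I (chromosome 2, 142359007 to 142361131), was already low at P3 in 2 of 3 libraries. The CPM was 275, 293 and 281 at P1, 158, 157 and 253 at P3, 180, 143 and 155 at P7, and 116, 160 and 124 at P28. All 9 libraries of the later ages lay below all 3 P1 libraries. NDUFA2 fell by 0.83 between P1 and P7 (SE 0.19, edgeR adjusted p = 0.0442) and by 1.09 between P1 and P28 (SE 0.19, edgeR adjusted p = 0.00289), a 2.12-fold lower level. The P3 change was -0.58 with an unadjusted p of 0.00857 and an edgeR adjusted p of 0.22. NDUFA2 overlaps TMCO6, whose log2 fold change from P1 to P28 was -0.07 (edgeR adjusted p = 0.805).

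ATP5F1A encodes the alpha subunit of the catalytic head of the ATP synthase (chromosome 1, 95625800 to 95750875), and was the member with the most counts, between 46266 and 107007 in a library. Its CPM was 7974, 7346 and 7708 at P1, 5615, 5691 and 8362 at P3, 6249, 5723 and 5944 at P7, and 5502, 5321 and 4559 at P28. The P28 libraries were the lowest of the 12, and P3 library 6 was the highest. ATP5F1A fell by 0.58 from P1 to P28 (SE 0.16, edgeR adjusted p = 0.0259).

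ATP5IF1 binds the ATP synthase and blocks it from running backwards and splitting ATP (chromosome 6, 85307189 to 85321350). It had a CPM of 804, 981 and 936 at P1, 693, 821 and 1010 at P3, 770, 735 and 693 at P7, and 635, 670 and 640 at P28. The P28 libraries were again the lowest and did not overlap any other age. ATP5IF1 fell by 0.49 from P1 to P28 (SE 0.14, edgeR adjusted p = 0.034). The gene overlaps DNAJC8, for which the change was -0.04 (edgeR adjusted p = 0.856).

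NDUFS5 and NDUFA8 are accessory subunits of complex I. NDUFS5 (chromosome 6, 94913076 to 94919452) had a CPM of 329, 361 and 359 at P1, 294, 232 and 361 at P3, 284, 235 and 291 at P7, and 239, 256 and 229 at P28. NDUFA8 (chromosome 1, 262237049 to 262258284), which overlaps an unnamed gene, had a CPM of 661, 688 and 662 at P1, 559, 504 and 626 at P3, 577, 517 and 602 at P7, and 492, 539 and 452 at P28. In both genes the P28 libraries lay below the P1 libraries and overlapped those of P7. NDUFS5 fell by 0.54 (SE 0.15, edgeR adjusted p = 0.032) and NDUFA8 by 0.44 (SE 0.12, edgeR adjusted p = 0.0258).

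Leaving out each of the 12 libraries in turn kept COX8A and NDUFA2 called between P1 and P28 in 12 of 12 fits, with edgeR adjusted p up to 0.011 and 0.0166. COX7A2 was called in 11, and was lost without P28 library 6 (edgeR adjusted p = 0.0704). The other 4 genes kept their direction but were each called in 6 to 8 of the fits. Without P1 library 5, P1 library 6 or P28 library 6, all 4 were lost, with edgeR adjusted p between 0.0574 and 0.115. ATP5F1A was also lost without P1 library 4 (0.0628) or P28 library 5 (0.0612), NDUFS5 without P28 library 4 (0.0801) or P28 library 5 (0.0591), NDUFA8 without P28 library 4 (0.0658), and ATP5IF1 without P7 library 4 (0.0505), P28 library 4 (0.0894) or P28 library 5 (0.0733). The count of 7 became 3 without P1 library 5 or 6, 4 without P28 library 4 or 5, and 2 without P28 library 6, while the share of all genes called fell from 15.3% to between 8.4% and 10% in these fits. DESeq2 called 10 members lower and 0 higher, where it called 19.7% of all genes.

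**Figure D2:**
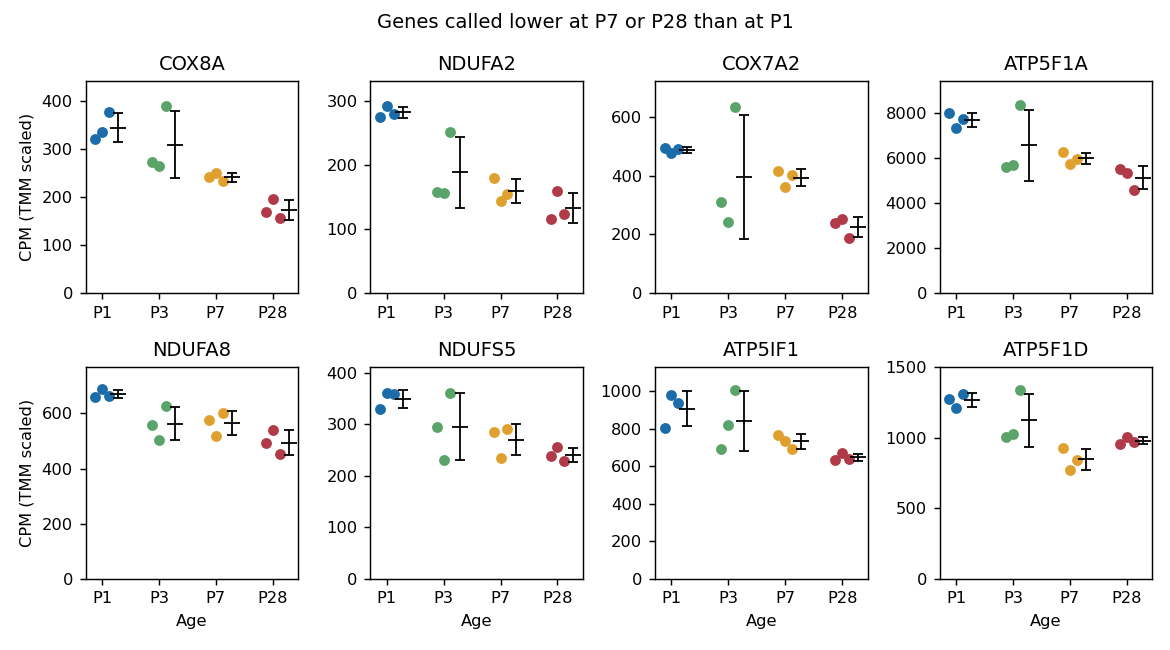
CPM of the 8 members called lower at P7 or P28 than at P1, 1 point per library, with the mean and SD of the 3 libraries beside the points (black) and the vertical axes starting at 0. COX8A and COX7A2 are lowest at P28, ATP5F1D is lowest at P7, and the P3 points spread widest.

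By complex, the medians of the P28 against P1 changes were -0.31 for the 9 complex I subunits, 0.04 for the complex II subunit SDHB, -0.34 for the 2 complex III subunits, -0.04 for the 5 complex IV subunits, -0.45 for the 4 complex V subunits and -0.04 for the 7 assembly factors. All 7 calls fell on subunits or the inhibitor, and 0 of 7 assembly factors were called by edgeR, with 0 of them under an unadjusted p of 0.05 and 0 called by DESeq2. Over all genes these shares were 15.3%, 30.7% and 19.7%, so that a count of 0 among 7 genes is near the background. The difference between subunits and assembly factors was not tested, since genes are not replicates.

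In complex I, the 4 core subunits belong to the conserved part that carries out electron transfer, whereas the 5 accessory subunits surround that part. The fit put all 9 under 0. Of the 5 accessory subunits 3 fell (NDUFA2, NDUFA8 and NDUFS5), where 7.93% of all genes fell, and the median change of the 5 was -0.44. The core subunits NDUFV1, NDUFV2, NDUFS3 and NDUFS8 had changes between -0.31 and -0.14 with a median of -0.23, and 0 of 4 were called by edgeR or DESeq2 or had an unadjusted p under 0.05, a count near the background for so few genes. NDUFA13, an accessory subunit, had the highest value of the complex, -0.05, with a 95% interval from -0.44 to 0.33.

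SDHB, the iron-sulfur subunit of complex II (chromosome 6, 75648215 to 75678378), had a CPM of 741, 790 and 765 at P1, 690, 664 and 848 at P3, 703, 609 and 633 at P7, and 786, 824 and 748 at P28. The P1 and P28 libraries overlapped, and the P7 libraries lay below both. The P28 against P1 change was 0.04, with a 95% interval from -0.22 to 0.30.

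In complex III, UQCRC1 (core protein 1) and UQCRFS1 (the Rieske iron-sulfur protein) had P28 against P1 changes of -0.39 (SE 0.14, edgeR adjusted p = 0.0745) and -0.30 (SE 0.14, edgeR adjusted p = 0.182). Neither passed the test, although the 3 P28 libraries lay below the 3 P1 libraries in both. The CPM of UQCRC1 was 2473, 2429 and 2511 at P1 and 1964, 1984 and 1716 at P28.

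In complex V, ATP5PO (the subunit OSCP of the peripheral stalk) and ATP5F1D (the delta subunit of the central stalk) had P28 against P1 changes of -0.52 (SE 0.18, edgeR adjusted p = 0.0627) and -0.37 (SE 0.13, edgeR adjusted p = 0.0672). ATP5PF, coupling factor 6 of the peripheral stalk, had the highest value of the complex, -0.24 (SE 0.17, edgeR adjusted p = 0.363). With 1 library left out, the change of ATP5PF lay between -0.30 and -0.15. The P28 libraries lay below the P1 libraries in all 4 subunits.

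The assembly factors ranged from -0.27 for UQCC3, a factor for complex III (edgeR adjusted p = 0.178), to 0.20 for NDUFAF1, a factor for complex I (edgeR adjusted p = 0.361). NDUFAF1 had a CPM of 128, 160 and 165 at P1 and 164, 174 and 182 at P28, and the libraries overlapped. Without P1 library 4 its change was 0.091. For the copper chaperone COX17 the change was -0.11 with a 95% interval from -0.36 to 0.14, and for NDUFAF3 it was -0.04 with an interval from -0.27 to 0.20. NDUFAF4, with 170 to 734 counts in a library, had a wider interval, from -0.48 to 0.73. That of COA7, with 69 to 254 counts, ran from -0.66 to 0.35. UQCC3, with 417 to 671 counts, had an interval from -0.55 to 0.01. The part of depth in these widths was not tested.

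**Figure D3:**
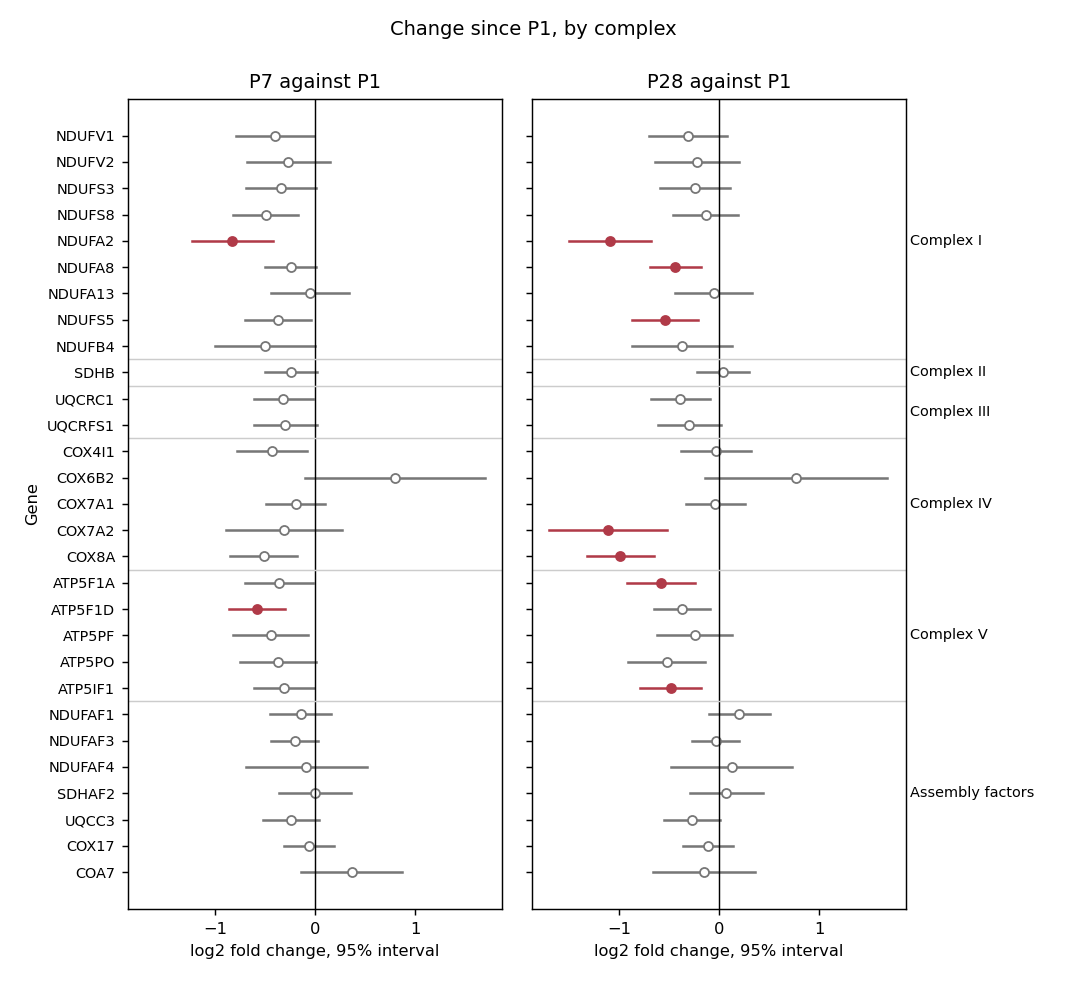
log2 fold change of each member at P7 (left) and P28 (right) against P1, with its 95% interval from edgeR (horizontal axis; genes on the vertical axis, grouped by complex; filled red points have a Benjamini-Hochberg adjusted p under 0.05 over all genes). At P7 27 of 29 points are under 0 with 2 called, and at P28 24 are under 0 with 7 called.

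Summed over its subunits, complex V went from 11630 CPM ± 282 (SD, n = 3) at P1 to 8865 ± 517 at P7 and 8081 ± 632 at P28. ATP5F1A makes up most of this sum. Complex I went from 4804 CPM ± 30 at P1 to 3724 ± 225 at P7 and 3844 ± 331 at P28. At P3 complex V had 9906 ± 2312, with libraries between 8313 and 12559, and complex I had 4507 ± 781, between 3865 and 5376. For these complexes the P3 libraries lay on both sides of the P1 libraries, while the P7 and P28 libraries lay below all P1 libraries.

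Complex III had 4423 CPM ± 118 (SD, n = 3) at P1, 3572 ± 371 at P7 and 3477 ± 250 at P28, again with no overlap with P1. Complex IV had 4625 ± 192 at P1, 3605 ± 206 at P7 and 4108 ± 468 at P28, and complex II had 765 ± 24.4, 648 ± 49.0 and 786 ± 37.7. The P7 and P28 libraries of complex IV lay below its P1 libraries too. The assembly factors summed to 809 ± 12.7, 760 ± 20.5 and 801 ± 42.1, with P28 libraries on both sides of the P1 libraries. At P3 the sums were 4162 ± 587 for complex III, 4390 ± 764 for complex IV, 734 ± 99.3 for complex II and 841 ± 58.6 for the assembly factors. In each of these the P3 libraries lay on both sides of the P1 libraries. The mean sums of complexes I, II and IV and of the assembly factors were lowest at P7, and those of complexes III and V at P28. These sums weigh genes by their read number and were not tested.

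**Figure D4:**
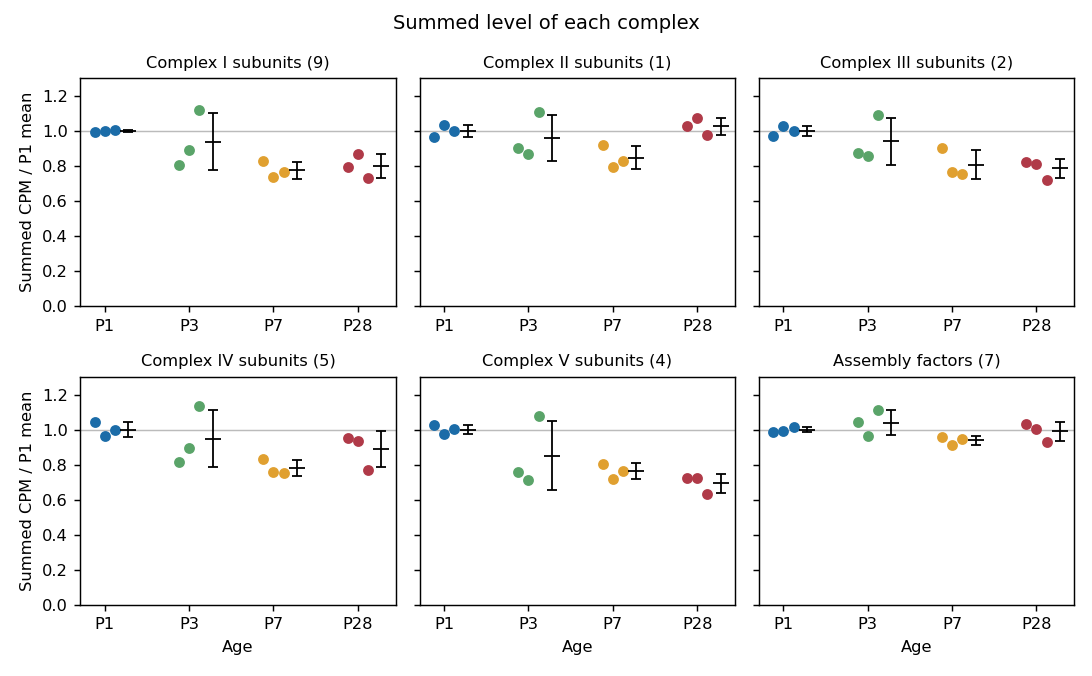
Summed CPM of the subunits of each complex and of the assembly factors, divided by the mean at P1 (vertical axis from 0), 1 point per library, with the mean and SD of the 3 libraries of an age in black and the number of genes in brackets. Complexes I, III, IV and V are below 1 in every P7 and P28 library, the complex II subunit SDHB is back near 1 at P28, and the assembly factors stay close to 1.

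At P7, 2 members had fallen since P1, where 2.01% of all genes tested were called, 0.543% lower and 1.47% higher: NDUFA2, described above, and ATP5F1D. The fitted change was under 0 in 27 of the 29 members, against 51.2% of all genes, and the median over members was -0.31, against -0.01 over all genes. Every P7 library lay below every P1 library in 22 members, against 15.2% of all genes, and 12 members had an unadjusted p under 0.05, against 16.1%. The 2 members with a change above 0 were COX6B2 (0.80) and COA7 (0.36), both with low counts. The median change at P7 was -0.37 for complex I, -0.24 for SDHB of complex II, -0.31 for complex III and -0.31 for complex IV. It was -0.41 for complex V and -0.09 for the assembly factors. DESeq2 called 4 members, with 6.59% of all genes called.

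ATP5F1D (chromosome 2, 77216433 to 77222749) had a CPM of 1276, 1209 and 1311 at P1, 1002, 1028 and 1337 at P3, 922, 770 and 841 at P7, and 955, 1004 and 970 at P28. The P7 libraries were the lowest of the 12, and the P28 libraries lay between them and the P1 libraries. ATP5F1D fell by 0.58 from P1 to P7 (SE 0.13, edgeR adjusted p = 0.0405). It overlaps CBARP, whose P7 against P1 change was -0.28 (edgeR adjusted p = 0.703). Both P7 calls were lost, with edgeR adjusted p between 0.0605 and 0.185 for NDUFA2 and between 0.0564 and 0.18 for ATP5F1D, when any P1 library, any P7 library or P28 library 6 was left out, and ATP5F1D also without P28 library 5 (0.0556). Without P3 library 5 the count was 4, with NDUFB4 and ATP5PF also lower, and 5.95% of all genes were called. With the column numbers as a block, 0 members were called between P1 and P7, with 1.74% of all genes called.

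Several other subunits were lowest at P7 without passing the test. NDUFS8, a core iron-sulfur subunit of complex I, had a CPM of 605, 642 and 670 at P1, 513, 712 and 789 at P3, 466, 477 and 419 at P7, and 554, 648 and 544 at P28. Its P7 libraries lay below all 9 others, with a change of -0.49 from P1 (unadjusted p = 0.00614, edgeR adjusted p = 0.103) and of 0.36 from P7 to P28 (edgeR adjusted p = 0.116). COX4I1, the ubiquitous isoform of subunit 4 of complex IV, had a CPM of 2845, 2367 and 2612 at P1, 2018, 2470 and 2999 at P3, 2018, 2058 and 1727 at P7, and 2886, 2600 and 2175 at P28. For COX4I1 the P7 libraries lay below those of P1 and P28, with changes of -0.43 from P1 (edgeR adjusted p = 0.193) and 0.40 from P7 to P28 (edgeR adjusted p = 0.1). COX4I1 is listed with positions that span 4 other genes, among them IRF8 and GINS2. NDUFS8, with a listed length of 9685 bases, overlaps 3 other genes, among them TCIRG1 and UNC93B1.

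Over the members, the mean CPM was lowest at P7 in 13 genes and at P28 in 14, and it was highest at P1 in 17. Of all genes tested, 22.6% were lowest at P7, 33.7% were lowest at P28 and 20.9% were highest at P1. From P7 to P28, 15 members had a fitted change under 0 and 14 above 0, against 48.8% of all genes under 0. An unadjusted p was under 0.05 in 7 members, against 33.0% of all genes. The P28 libraries lay above the P7 libraries in 5 members, against 23.7% of all genes, and below them in 5, against 23.3%. COX8A was the 1 member that fell, where 18.8% of all genes were called, 10.5% lower and 8.34% higher, and 0 rose. This call was lost without any P7 or P28 library or without P1 library 5 or 6, with edgeR adjusted p between 0.0591 and 0.163. The count was 2 without P3 library 4, when NDUFS8 was called higher, 3 without P3 library 5, when COX7A2 and COA7 were called lower, and 2 without P3 library 6, when COX7A2 was called lower, with 21.6%, 28.3% and 19.9% of all genes called. DESeq2 called COX7A2 and COX8A, with 23.5% of all genes called. With the column numbers as a block, edgeR called 0 members between P7 and P28 and 18.3% of all genes.

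At P3, 0 of 29 members were called against P1 by edgeR, where 0.0543% of all genes were called. An unadjusted p was under 0.05 in 2 members, NDUFA2 and SDHAF2, against 15.2% of all genes, and DESeq2 called 0, where it called 2.21% of all genes. SDHAF2, which helps to attach the flavin to SDHA in complex II, had a CPM of 95.7, 83.0 and 85.7 at P1 and 89.3, 141 and 129 at P3, with a change of 0.44 (SE 0.17, edgeR adjusted p = 0.265). The fitted change was under 0 in 19 of 29 members, against 49.0% of all genes. Every P3 library lay below every P1 library in 2 members, against 7.62% of all genes, and above in 2, against 465 of 5526 genes. The P3 libraries went in different directions. P3 library 6 was the highest of the 12 libraries in 15 members, and P3 library 5 was the lowest of the 12 in 7 members and the highest in 4. The summed CPM of the members was 22584 in P3 library 4, 22785 in P3 library 5 and 30774 in P3 library 6, so that 1 library lay above and the other 2 below the P1 range of 27712 to 28154.

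Between P3 and P7, 0 members were called by edgeR, where 2.21% of all genes were called. Here 25 members had a fitted change under 0, against 51.8% of all genes. Without P3 library 6 this count was 15. With all libraries, the P7 libraries lay below the P3 libraries in 6 members, against 10.7%. An unadjusted p was under 0.05 in 8 members, against 18.9% of all genes, and DESeq2 called 3 lower (NDUFS8, NDUFAF3 and ATP5F1D), where it called 6.57% of all genes. Without P3 library 4, edgeR called 3 members lower (NDUFS8, NDUFV1 and SDHAF2) and 4.36% of all genes. In the test for any difference among the 4 ages, edgeR called 4 members, COX8A (adjusted p = 0.00372), NDUFA2 (0.00602), ATP5F1D (0.024) and COX7A2 (0.0479), where 21.4% of all genes were called. Without P3 library 4 this count was 10, and without P3 library 5 or 6 it was 9, with between 23.2% and 30.9% of all genes called. It was 2 without P1 library 6, P7 library 5, P7 library 6 or P28 library 6, with between 13.1% and 16.4% of all genes called.

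Thresholds that the paper states for circRNAs are a p of 0.05 or less, taken here as unadjusted, with a log2 fold change above 0.5 or below -0.5. By these, 1 member was lower at P3 than at P1, against 3.64% of all genes, 4 were lower at P7, against 4.07%, and 6 were lower at P28, against 12.1%. From P3 to P7, 2 members were lower, against 6.46%, and from P7 to P28, 2 were lower, against 14.0%. No member was higher in any of these 5 comparisons.

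Subunit 7A of complex IV was measured in both isoforms. COX7A1, the isoform of heart and skeletal muscle (chromosome 6, 45517226 to 45520714), had a CPM of 1166, 1264 and 1122 at P1, 1174, 1169 and 1223 at P3, 1165, 832 and 1107 at P7, and 1123, 1288 and 1049 at P28. The libraries of P1 and P28 overlapped, and P7 library 5 was the lowest. The P28 against P1 change was -0.04 (95% interval from -0.34 to 0.26, edgeR adjusted p = 0.876), beside the fall of COX7A2 by 1.11.

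The ratio of COX7A1 to COX7A2 counts within a library does not depend on the scaling of libraries. The ratio was 2.36, 2.65 and 2.29 in the P1 libraries, 3.77, 4.86 and 1.93 at P3, 2.80, 2.31 and 2.75 at P7, and 4.74, 5.10 and 5.61 at P28. The P28 libraries lay above those of P1 and P7, while P3 library 5 reached the P28 range and P3 library 6 gave the lowest ratio of all. The mean ratio was 2.43 ± 0.19 (SD, n = 3) at P1 and 5.15 ± 0.44 at P28. Over the 4 ages the log2 ratio differed by more than the spread between libraries (exact permutation test of F over 369600 assignments, one-sided for large F, p = 0.0401). For P28 against P1 alone the exact permutation p was 0.1, the smallest that 3 against 3 libraries allow. The exact permutation test over 4 ages gave p between 0.0508 and 0.102 without P1 library 4 or 6, P3 library 4, P7 library 5 or 6 or any P28 library, and p = 0.00136 without P3 library 6. Permuted within the numbers of the column names, this test gave a p over 0.05, as described below.

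COX7A1 overlaps CAPNS1, whose P28 against P1 change was 0.01 (edgeR adjusted p = 0.976), and COX7A2 overlaps no other listed gene. Per base of the listed gene length, 2320 bases for COX7A1 and 535 for COX7A2, the log2 ratio was between -0.92 and -0.71 at P1 and between 0.13 and 0.37 at P28. On the scale of counts per length COX7A2 thus had the higher level at P1 and COX7A1 the higher level at P28, an order that rests on the listed lengths, since COX7A1 had more counts than COX7A2 in all 12 libraries. COX6B2, known as the testis isoform of subunit 6B, had only 8 to 31 counts in a library, and its P28 against P1 change of 0.77 had a 95% interval from -0.14 to 1.68. This change was 0.30 without P28 library 6 and 0.46 without P1 library 4.

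**Figure D5:**
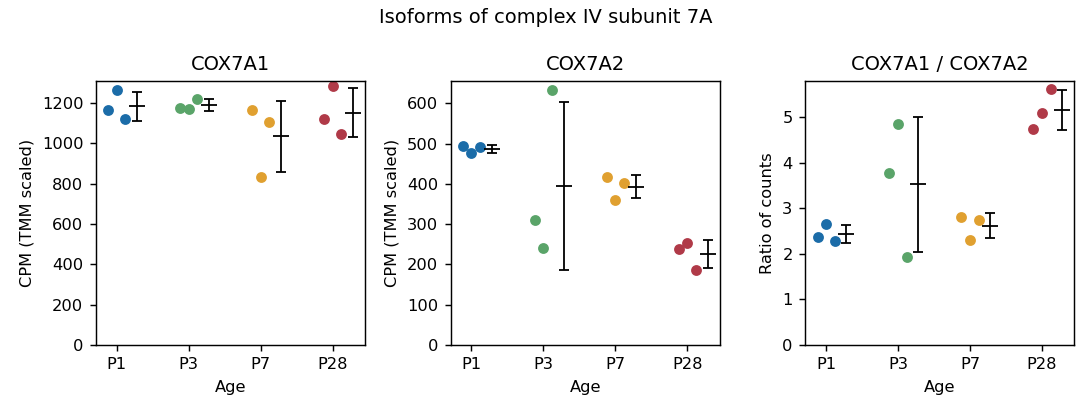
CPM of the muscle isoform COX7A1 (left) and of the ubiquitous isoform COX7A2 (middle) and the ratio of their counts (right), 1 point per library by age, with the mean and SD of the 3 libraries in black and axes from 0. COX7A1 overlaps between P1 and P28, COX7A2 is lower at P28 than at P1 and P7, and the ratio rises from a mean of 2.43 at P1 to 5.15 at P28.

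Levels between genes were compared per length, as CPM per kilobase of the listed length at P1. COX4I1 had the highest level, 3196 ± 293 (SD, n = 3), followed by ATP5PO at 2300 ± 64.6 and ATP5IF1 at 1468 ± 149. ATP5F1D at 1166 ± 47.4 and UQCRC1 at 1138 ± 18.8 came next, with a difference within the SD of ATP5F1D but larger than that of UQCRC1. The other subunits except COX6B2 (2.38 ± 0.99) lay between 66.0 for NDUFS8 and 911 for COX7A2. Of the assembly factors, COX17 stood at 607 ± 13.8 and the other 6 between 8.35 for NDUFAF4 and 54.6 for NDUFAF3, below every subunit but COX6B2. The listed lengths of NDUFS8 (9685 bases) and ATP5F1A (14834 bases) are the greatest of the members, and a length that joins many transcripts lowers the value per kilobase.

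Of the 29 members, 11 have a listed length under 1000 bases. The median P28 against P1 change was -0.37 in these 11 and -0.23 in the other 18. Over the protein coding genes tested, the median was -0.19 in the 214 under 1000 bases and -0.01 in the other 4377. Across the 29 members, Spearman's correlation between length and change from P1 to P28 was 0.31, and across the 4591 protein coding genes it was 0.11, as descriptions over genes of the same libraries. Within a library, the correlation over protein coding genes between length and the level relative to the gene's mean lay between -0.13 and -0.04 at P1, between -0.16 and 0.01 at P3, between -0.00 and 0.08 at P7 and between 0.05 and 0.09 at P28. It was lowest, -0.16, in P3 library 6, the library in which 15 members were highest. The part of transcript length in the changes was not tested.

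The file leaves 3 further genes of this kind unnamed, and they were found by their gene ID after the values of the members were known. UQCR11, a small subunit of complex III (chromosome 2, 76903281 to 76909544), had a CPM of 805, 818 and 793 at P1, 632, 758 and 841 at P3, 675, 490 and 581 at P7, and 513, 612 and 518 at P28. UQCR11 fell from P1 to P28 by 0.56 (SE 0.14, edgeR adjusted p = 0.0215), with no overlap of the libraries. NDUFB5, an accessory subunit of complex I, had a P28 against P1 change of -0.58 (SE 0.25, edgeR adjusted p = 0.127), and NDUFA7, listed as a long noncoding RNA, one of -0.32 (SE 0.13, edgeR adjusted p = 0.126). In all 3 genes the P28 and P7 libraries lay below the P1 libraries.

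Other genes of mitochondrial energy metabolism were counted from fixed lists. Of 3 tested genes for carriers and substrates of the chain (COQ4, COQ9 and ETFB), of 2 for the citrate cycle (PDHB and SUCLG2) and of 7 for regulators of mitochondrial biogenesis, 0 were called by edgeR between P1 and P28, where 15.3% of all genes were called, and the list medians were -0.15, -0.07 and 0.12. Of 10 other assembly and iron-sulfur factors 1 fell, HIGD2A, a factor for complex IV and supercomplexes, by 0.60 (SE 0.15, edgeR adjusted p = 0.0207), and the list median was 0.05. HIGD2A had a mean CPM of 247 ± 30.2 (SD, n = 3) at P1 and 163 ± 21.6 at P28.

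In the other comparisons of 2 ages, 4 genes of these lists were called, and they are named after their values were seen. From P7 to P28, where 18.8% of all genes were called, 2 of 7 regulators rose, PPARGC1B, a coactivator of mitochondrial biogenesis, by 0.97 (edgeR adjusted p = 0.0372) and ESRRA, a nuclear receptor that drives genes of oxidative metabolism, by 0.58 (edgeR adjusted p = 0.0248). Of the 10 other factors 1 was called, SURF1, an assembly factor of complex IV, which rose by 0.43 (edgeR adjusted p = 0.04). COQ4, 1 of the 3 carrier and substrate genes, takes part in ubiquinone synthesis and fell by 0.53 between P3 and P7 (edgeR adjusted p = 0.0443), where 2.21% of all genes were called. The edgeR test for any difference among the 4 ages called ETFB (adjusted p = 0.0261), RXRA (0.0483), COQ4, PPARGC1B and HIGD2A, where 21.4% of all genes were called.

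Markers of cell types moved with age as well. Of the 6 heart muscle markers, ACTC1 fell by 0.60 (edgeR adjusted p = 0.034) and MYBPC3 rose by 0.57 (edgeR adjusted p = 0.0158) from P1 to P28, and from P7 to P28 TNNC1 rose by 0.54 (edgeR adjusted p = 0.0338), TNNI3 by 0.71 (0.00403) and MYBPC3 by 0.69 (0.00425). The summed level of the 6 was between 80784 and 89185 CPM at P1, between 69121 and 77387 at P7 and between 77747 and 90959 at P28. Of the 3 fibroblast markers measured, TCF21 and FBN1 fell and COL5A1 was not called, and their sum went from between 4346 and 4735 CPM at P1 to between 1335 and 1676 at P28. The 3 endothelial markers summed to between 560 and 631 CPM at P1 and between 576 and 629 at P28. Of these, TEK was called higher at P28 than at P1 (0.53), while TIE1 (-0.32) and CDH5 (-0.35) were under 0 without a call. From P7 to P28 TIE1 fell by 0.71 (edgeR adjusted p = 0.0236). PDGFRB, the 1 marker of smooth muscle and pericytes, was not called, and the 2 leukocyte markers, CD14 and CSF1R, went from between 102 and 144 CPM to between 174 and 242 with 0 called. Of the adipocyte markers, 2 were listed with at most 14 counts and 0 were tested, and 0 of 6 erythroid markers are in the table used here. The part of these cell types in the members' changes was not tested.

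Of the 29 members, 17 overlap another listed gene by their positions from gene start to gene end. Whether such pairs share exons was not examined. Whether counting used the strand is not given in the sources used here, so that reads from a shared stretch cannot be told apart.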

How the data were processed

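Total RNA of 12 pig hearts was sequenced, and the authors deposited raw read counts per gene, without normalization. For total RNA the paper names depletion of rRNA and a stranded kit. The labels name another, directional kit, which the paper describes for circRNA libraries treated with RNase R, and whether this touches the counts was not tested. The counting tool, its strand setting and its annotation are not given in the sources used here. The submitters' processing notes name STAR 2.7.9a, MultiQC 1.11 and Sscrofa 10.2. Of the 29 members, 17 are in the RefSeq table of Sscrofa11.1, all 17 at overlapping positions, so the gene positions are printed as in the file. The line that ends the gene table, on which no values stand, was dropped. Circular and small RNA files were not used here.

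Genes that reached 10 counts in 3 or more of 12 libraries were tested in R 4.3.3 with edgeR 4.0.16 (TMM, quasi-likelihood, 4 ages in 1 fit, no covariate, Benjamini-Hochberg over all genes), which was tested on simulated data. SEs were derived from the fold change and F. DESeq2 1.42.0 was an alternative, as were thresholds the paper states for circRNAs (p of 0.05 or less, taken here as unadjusted, and absolute log2 fold change over 0.5). Plots were drawn with matplotlib 3.10.9. Columns were assigned to ages by name, and the numbers 4 to 6 do not match sample numbers in the labels. The members, lists and rules were chosen with earlier results of these data known. By rule, the members named were those called in any test, isoforms of complex IV, and the highest and lowest P28 against P1 change of each complex and of the assembly factors, and the list genes named were those called between P1 and P28. All other members and list genes were named after their values were seen.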

Additional observations from a re-analysis of the deposited data

How the results depend on the processing

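The median P28 against P1 change of the members stayed between -0.30 and -0.19 under all alternatives, and no member called between P1 and P28 changed direction under any. For P28 against P1 the count was 7 with DESeq2's size factors (15.3% of all genes called), without the filter on low counts (9.94%), with at least 10 counts in all 12 libraries (15.5%), with protein coding genes only (16.1%), and without the Metazoa_SRP genes (15.3%). It was 10 with DESeq2, 11 with only the 2 ages compared (21.2% of all genes called), 6 with the paper's thresholds and 8 with UQCR11 and NDUFB5 added, an alternative chosen after seeing the data. For P7 against P1 the count of 2 became 4 with DESeq2, 4 with the paper's thresholds and 6 with only the 2 ages compared (6.24% of all genes). For P28 against P7 the count of 1 became 2 with DESeq2 and 2 with the stricter filter (19.6% of all genes called). It was 2 with the paper's thresholds (COX7A2 and COA7, both lower). With only the 2 ages compared it was 4 (30.4% of all genes), of which NDUFS8 was higher. Without the filter the 1 gene was COX7A2, where 982 of 8368 genes were called. For P7 against P3 the count of 0 became 3 with DESeq2 and 2 with the paper's thresholds, for P3 against P1 it became 1 with the paper's thresholds, and for any age the count of 4 became 12 with DESeq2, which called 32.3% of all genes.

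Leaving out each library in turn gave counts of 0 for P3 against P1, 0 to 4 for P7 against P1, 2 to 10 for P28 against P1, 0 to 3 for P7 against P3, 0 to 3 for P28 against P7 and 2 to 10 for any age. The shares of all genes called in these fits were 0.0181% to 0.29%, 0.38% to 5.95%, 8.4% to 25.6%, 0.344% to 4.36%, 10.4% to 28.3% and 13.1% to 30.9%. For P28 against P1 the count of 2 came with 8.79% and that of 10, without P3 library 6, with 17.4%. The difference in log2 COX7A1 to COX7A2 ratio between P28 and P1 was 1.08, and 1.02 to 1.15 with a library left out, with exact permutation p over 4 ages between 0.00136 and 0.102. Of the 29 members, 6 turned sign between P1 and P28 when 1 library was left out. NDUFAF4 was -0.17 and SDHAF2 -0.045 without P28 replicate 4, and NDUFAF3 was 0.011 without P28 replicate 6. With 1 library left out, COX4I1 lay between -0.14 (without P28 replicate 4) and 0.073 (without P28 replicate 6), and was 0.034 without P1 replicate 4. COX7A1 lay between -0.13 (without P28 replicate 5) and 0.025 (without P28 replicate 6), and was 0.0053 without P1 replicate 5. NDUFA13 lay between -0.18 (without P1 replicate 5) and 0.063 (without P1 replicate 4), and was 0.048 without P28 replicate 6.

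Whether the numbers in the column names pair the libraries cannot be decided here, since r overlapped between same-number and other-number pairs. Of 18 same-number pairs, 5 correlated above 0.1 in their deviations, with r from -0.19 to 0.33. Of 36 pairs with other numbers, 6 did, with r from -0.26 to 0.25. For 6 of 12 libraries the best correlation was with a library of their own number. With the replicate block, 7 members were called for P28 against P1, 0 for P7 against P1, 0 for P28 against P7 and 3 for any age, with 14.2%, 1.74%, 18.3% and 20.1% of all genes called, and the ratio, permuted within numbers, had an exact p of 0.066 at an unchanged difference of 1.08. The cause of these differences was not tested. Depth limits COX6B2, with 8 to 31 counts a library, whose interval was the widest of the members between P1 and P28.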
